A study of Mus musculus with 12 samples.

Results

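Lipolysis and adipogenic genes were followed in hernia-associated fibroblasts (HAFs), fibroblasts cultured from the lower abdominal muscle (LAM) of male Aromhum mice. The genes were 10 listed by name (Lipe, Pnpla2, Mgll, Abhd5, Plin2, Angptl4, Lpl, Pparg, Cebpb and Dgat1), matched by Ensembl identifier, and all 10 were among the 13233 genes of the normalized count table. All cells carried the Aromhum transgene, a bacterial artificial chromosome with the human aromatase gene on the FVB/N background, so every group shared it. Cells had been treated for 48 h with vehicle (ethanol, DMSO), with E2 at 10 nM, with fulvestrant at 100 nM, or with both at these doses, and RNA-Seq covered 3 samples per group, 12 in all. Fulvestrant is an estrogen receptor antagonist that also causes loss of the receptor. The labels give neither the age of the mice nor whether replicates were separate animals or cultures, so p-values measure only the spread between these samples. The E2 was added in culture, and no group came from mice without the transgene.

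Triglyceride is held in lipid droplets and is broken down in steps. ATGL (Pnpla2), helped by its coactivator CGI-58 (Abhd5), removes the first fatty acid, hormone-sensitive lipase (Lipe) acts on the diacylglycerol, and monoglyceride lipase (Mgll) removes the last fatty acid. Perilipin 2 (Plin2) coats lipid droplets in many cell types. Lipoprotein lipase (Lpl) releases fatty acids from circulating lipoproteins and ANGPTL4 (Angptl4) inhibits it. C/EBPβ (Cebpb) acts early in adipogenesis and PPARγ (Pparg) is the main regulator of that process, while DGAT1 (Dgat1) makes triglyceride. Muscle-resident PDGFRA-positive progenitors, to which HAFs are related, are known to be able to form adipocytes.

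Fulvestrant raised Cebpb 1.47-fold with E2 and 1.48-fold without, in 3 of 3 replicates each time. Plin2 was higher and Lipe lower with fulvestrant in replicates 2 and 3, with and without E2. In replicate 1 the log2 difference of Plin2 was 0.09 with E2 and -0.0043 without, and that of Lipe was -0.11 and 0.34. With fulvestrant alone, Plin2 rose and Mgll and Lpl fell against vehicle, the falls being largest in replicate 1. The calls of Plin2, Mgll and Lpl were lost in 12, 9 and 15 of 24 alternative fits. E2 changed no listed gene past the threshold.

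Values are read counts that the authors scaled per sample by the median of ratios, called normalized counts here. They were compared as log2(normalized count + 1) with limma, with all 12 samples in one fit and the replicate number as a block. Calls required a fold change over 1.2 and an adjusted p under 0.05, by Benjamini-Hochberg over all 13233 genes. Reads summed over all 13233 genes, estimated by dividing each sample by 1 factor, ranged from 18827792 to 44040507 per sample (median 31703872). Replicate 1 stood apart from replicates 2 and 3 in every group. Deviations from the group means correlated at 0.84 to 0.92 among the samples of replicate 1 (6 pairs) and at -0.86 to -0.71 between replicate 1 and the others (24 pairs). They correlated at 0.63 to 0.80 between samples that shared number 2 or 3 (12 pairs) and at 0.63 to 0.79 between replicates 2 and 3 (12 pairs). The 3 deviations of a group sum to 0, so these correlations are partly set by the centring. The difference of replicate 2 from replicate 3, which replicate 1 does not enter, correlated between groups at -0.17 to 0.18 (6 pairs of groups, 2 above 0). Over all genes, 10.3% differed over 2-fold in mean level between the 4 samples of replicate 1 and the 8 of replicates 2 and 3. Without the block 69 genes were called for E2 plus fulvestrant against E2 and 72 for fulvestrant against vehicle (0.521% and 0.544% of all genes), and no listed gene was called. With replicate 1 against replicates 2 and 3 as the only block, a fit added after the values were seen, 1440 and 1800 genes were called. In bulk RNA, fewer cells of a type and less RNA per cell cannot be told apart.

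The table kept genes with at least 10 reads in every sample, so a marker missing from it may still have been expressed in some samples. All 10 fibroblast markers were among the genes analysed, with Pdgfra at 23150 to 40301 normalized counts. None of 14 mature adipocyte markers, among them Adipoq, Plin1 and Fabp4, was among the genes analysed. Of the other lists, 1 of 10 myogenic markers (Ttn, 14.9 to 54.3), 1 of 7 endothelial markers (Tek, 58.5 to 276.5), 2 of 8 macrophage markers (Cd68 and Lyz2) and 3 of 7 pericyte and smooth muscle markers (Myh11, Cspg4 and Notch3) were among them. The pericyte and smooth muscle genes summed to 3506 to 4438 in replicate 1 and 1940 to 2625 in replicates 2 and 3. Tek was at 58.5 to 83.7 in replicate 1 and 157 to 276.5 in the others. The macrophage pair summed to 171.6 to 389.3 and 90.7 to 181.8, which overlapped, with Lyz2 higher by 1.48 (log2) and Cd68 at -0.33 in replicate 1. Notch3 fell with fulvestrant against vehicle (-0.85, adjusted p 0.0125). The fibroblast list summed to 437390 to 578860 in replicate 1 and 392930 to 623130 in replicates 2 and 3, but 5 of its 10 genes differed over 2-fold between them, such as Thy1 at 36.9 to 78.3 against 362 to 562. With fulvestrant 5 of 10 fibroblast markers fell in the presence of E2 (Col1a1, Col1a2, Col3a1, Lum and Esr1), and without E2 4 fell and Ly6a rose, beside 9.6% and 12.5% of all genes called in either direction. The part of these differences in the results below was not tested.

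Levels were compared per length. Median normalized counts per kb of exon were 3674 for Angptl4, 3158 for Lpl, 2982 for Cebpb and 1815 for Plin2. They were 289.9 for Abhd5, 242.9 for Pnpla2, 200.4 for Mgll, 178.6 for Dgat1, 67.0 for Lipe and 30.3 for Pparg. Over the 12 samples Lpl ranged from 183.2 to 3643 per kb, Angptl4 from 908.8 to 4005, Cebpb from 1264 to 4545 and Plin2 from 609.6 to 3352, so the order among these did not hold sample by sample, and the lowest Lpl values lay among those of the less abundant genes. The ranges of Abhd5 (218.9 to 322.9) and Pnpla2 (217.5 to 258.7) overlapped, as did those of Mgll (171.7 to 322.1) and Dgat1 (153.9 to 231.7). Lipe (55.8 to 97.0) lay above Pparg (8.09 to 34.8) and below the other 8 genes in every sample. Within the lipases, Lipe was thus the least abundant per length.

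The promoter windows shown are those of Cebpb, Plin2 and Lipe, the genes called in both fulvestrant comparisons when replicate 1 was left out. The RefSeq table (GRCm38.p6) gave 11 windows for 7 of the 10 genes, each from 250 bases before to 50 after a transcript start, and Angptl4, Lpl and Dgat1 had no entry. Sequences run 5′ to 3′ on the gene's strand, and capitals mark the letters GGTCA (an estrogen response element half-site) or ACGTG (the core of the hypoxia response element), on either strand.
Cebpb promoter, chr2:167688665-167688964, plus strand: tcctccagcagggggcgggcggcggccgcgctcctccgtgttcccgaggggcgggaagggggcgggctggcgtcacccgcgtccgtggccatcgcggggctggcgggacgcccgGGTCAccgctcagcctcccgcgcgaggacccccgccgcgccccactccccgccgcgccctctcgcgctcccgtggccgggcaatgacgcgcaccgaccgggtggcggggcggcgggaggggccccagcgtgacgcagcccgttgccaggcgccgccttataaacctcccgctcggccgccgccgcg
Plin2 promoter, chr4:86670010-86670309, minus strand: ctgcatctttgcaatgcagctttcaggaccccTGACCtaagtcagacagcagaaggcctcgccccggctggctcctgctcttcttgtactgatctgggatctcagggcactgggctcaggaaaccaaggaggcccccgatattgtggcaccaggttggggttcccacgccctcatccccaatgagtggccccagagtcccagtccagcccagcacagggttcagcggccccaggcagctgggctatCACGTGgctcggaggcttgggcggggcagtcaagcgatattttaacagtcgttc
Lipe promoter, chr7:25395938-25396237, minus strand: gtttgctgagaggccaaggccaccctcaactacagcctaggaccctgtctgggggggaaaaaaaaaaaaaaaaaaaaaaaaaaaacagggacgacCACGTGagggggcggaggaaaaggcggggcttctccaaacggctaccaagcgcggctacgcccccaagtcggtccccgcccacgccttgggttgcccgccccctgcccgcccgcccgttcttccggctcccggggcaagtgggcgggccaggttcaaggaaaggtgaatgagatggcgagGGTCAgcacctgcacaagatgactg

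The Cebpb window held GGTCA at position -136 from the start, on the gene's strand, and TATAAA at 22 downstream of the start. The Plin2 window held the reverse complement of GGTCA at -218 and the palindrome CACGTG, which carries ACGTG on both strands, at -4. The Lipe window held GGTCA at 26 downstream of the start and CACGTG at -155, and its start lies inside the GENCODE span of the gene. Of all 32851 windows in the table, 40.5% held GGTCA or its reverse complement, and 19.6% held ACGTG. The letters TATAAA were in 13.6% of them, the box written CCAAT was in 37.4%, and the GC box, written GGGCGG, was found in 35.7% of the windows. GGTCA was in 7 of the 11 windows, from 5 of the 7 genes (Abhd5, Cebpb, Lipe, Plin2 and Pparg), and GGGCGG in 9 windows, from all 7. ACGTG was in 4 of the 11 windows, from 3 of the 7 genes (Lipe, Mgll and Plin2). Counted per gene, 43.6% of the 27025 genes in the table had a window with GGTCA, 38.2% one with GGGCGG and 21.8% one with ACGTG. The glucocorticoid half-site AGAACA, held by 19.0% of all windows, was in a window of Mgll. The cyclic AMP response element TGACGTCA, present in 1.79% of all windows, was in no window of these genes. The C/EBP palindrome TTGCGCAA, present in 0.183% of all windows, was likewise in none. These matches are letters in the reference sequence and were not tested as binding sites.

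**Figure D1:**
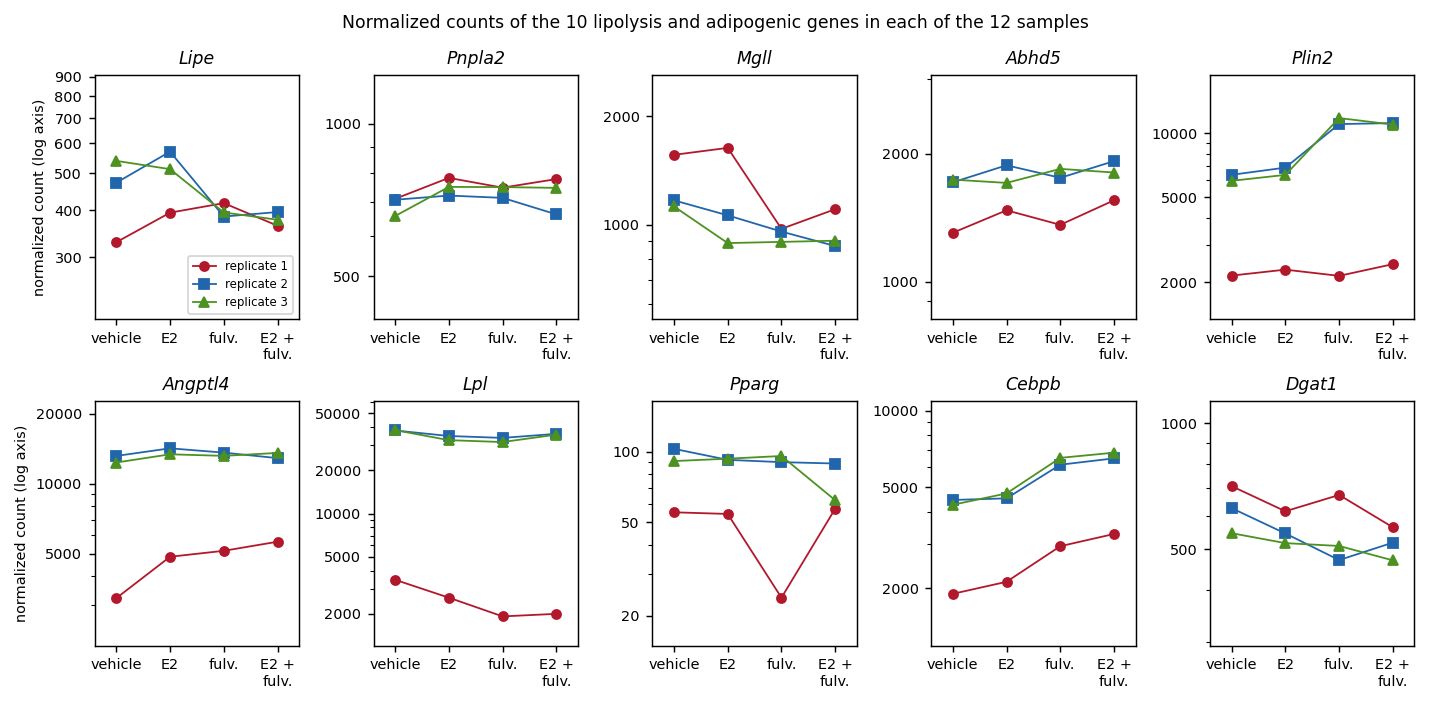
Normalized counts (log axis) of the 10 genes in each of the 12 samples, by group (vehicle, E2, fulvestrant, E2 plus fulvestrant), with each replicate number as its own symbol and line. Replicate 1 of Lpl lies at 1919 to 3454 and replicates 2 and 3 at 31513 to 38167, while the 3 lines of Cebpb rise together in both groups that had fulvestrant.

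In the presence of E2, fulvestrant was compared with no fulvestrant (E2 plus fulvestrant against E2) to show what blocking the receptor changes, and fulvestrant against vehicle asked the same without added E2. These comparisons share no sample. Of the 10 genes, 1 was called in the first, where 9.6% of all genes were, and 4 were called in the second (2 higher and 2 lower), where 12.5% of all genes were. An unadjusted p under 0.05 was found for 4 and 5 of the 10 genes and for 3616 and 4041 of all genes. The median log2 fold change of the 10 genes was -0.06 with E2 and -0.04 without, beside 0.01 and 0.01 over all genes.

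Among the transcription factors, Cebpb rose. Its gene (ENSMUSG00000056501) is on chr2:167688915-167690418, plus strand (GENCODE M21, GRCm38, the build called mm10). Cebpb was at 1901, 4452 and 4262 normalized counts in replicates 1 to 3 of vehicle, 2121, 4518 and 4726 of E2, 3272, 6493 and 6836 of E2 plus fulvestrant and 2928, 6129 and 6523 of fulvestrant. Each sample with fulvestrant exceeded the sample of the same number without it, although the groups overlapped, replicate 1 being the lowest in each. With the block, the log2 fold change was 0.56 (SE 0.05, adjusted p 9.3e-05) with E2 and 0.57 (SE 0.05, adjusted p 8.8e-05) without E2. By replicate number the log2 differences were 0.63, 0.52 and 0.53 with E2 and 0.62, 0.46 and 0.61 without. The call held in 23 of 24 alternatives in both comparisons. Without the replicate block the fold changes were the same with an SE of 0.47, and neither was called (adjusted p 0.992 and 0.950).

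Pparg was the least abundant gene and the least precise. Pparg (ENSMUSG00000000440) lies on chr6:115360951-115490399, plus strand. Its values were 55.1, 103 and 91.1 in vehicle, 54.2, 92.2 and 93.2 in E2, 57.1, 88.9 and 62.1 in E2 plus fulvestrant and 23.9, 90.1 and 95.7 in fulvestrant. The lowest sample was replicate 1 of fulvestrant, and the groups overlapped. The log2 fold change of fulvestrant was -0.19 (SE 0.28) with E2 and -0.43 (SE 0.28) without, with 95% intervals of -0.80 to 0.43 and -1.05 to 0.19, and neither was called (adjusted p 0.716 and 0.337). With samples left out, the value without E2 moved between -0.72 and -0.0063, the latter without replicate 1 of fulvestrant. The value with E2 moved between -0.45 and 0.067, the latter without replicate 3 of E2 plus fulvestrant, and neither was called in any of these fits.

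Among the lipases, Lipe was lower with fulvestrant in 3 of 3 pairs with E2 and in 2 of 3 without. Lipe (ENSMUSG00000003123) lies on chr7:25379527-25398710, minus strand. Lipe was at 329, 472 and 540 in vehicle, 394, 571 and 513 in E2, 363, 395 and 377 in E2 plus fulvestrant and 417, 384 and 394 in fulvestrant. The 6 samples with fulvestrant spanned 363 to 417, whereas those without spanned 329 to 571. The mean ± SD was 447 ± 108 (n = 3) in vehicle, 492 ± 90.4 in E2, 378 ± 15.9 in E2 plus fulvestrant and 399 ± 16.8 in fulvestrant. With the block, the log2 fold change was -0.36 (SE 0.14, adjusted p 0.123) with E2 and -0.14 (SE 0.14, adjusted p 0.565) without, and neither was called. Differences by replicate number were -0.11, -0.53 and -0.44 with E2 and 0.34, -0.30 and -0.45 without. Without replicate 1, Lipe fell in both comparisons, by 0.49 (adjusted p 0.0139) and 0.37 (adjusted p 0.0328) on the log2 scale. With E2 it was -0.28 without replicate 2 (adjusted p 0.504) and -0.32 without replicate 3 (adjusted p 0.369). Against vehicle it was -0.055 (adjusted p 0.899) and 0.023 (adjusted p 0.961).

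Pnpla2, the lipase of the first step, was nearly level over all samples. Pnpla2 (ENSMUSG00000025509) lies on chr7:141455198-141460743, plus strand. Its lowest value was 657 (vehicle, replicate 3) and its highest 781 (E2, replicate 1). The fulvestrant log2 fold change was -0.05 (SE 0.07, 95% interval -0.19 to 0.10) with E2 and 0.09 (SE 0.07, -0.06 to 0.24) without, and neither was called. Its values in the 3 vehicle samples (657 to 710) lay below those of the 3 fulvestrant samples (713 to 749), a gap smaller than the spread within either group.

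Mgll, the lipase of the last step, fell with fulvestrant against vehicle. Mgll (ENSMUSG00000033174) lies on chr6:88724412-88828360, plus strand. It was at 1564, 1168 and 1123 in vehicle, 1635, 1061 and 888 in E2, 1104, 872 and 902 in E2 plus fulvestrant and 973, 956 and 895 in fulvestrant. The 3 fulvestrant samples all lay below the 3 vehicle samples, while E2 and E2 plus fulvestrant overlapped. The log2 fold change was -0.43 (SE 0.12, adjusted p 0.0293) without E2 and -0.28 (SE 0.12, adjusted p 0.155, not called) with E2. By replicate number it was -0.68, -0.29 and -0.33 without E2 and -0.57, -0.28 and 0.02 with E2. Leaving out all of replicate 1 kept the fall against vehicle (-0.31, adjusted p 0.0249), but leaving out any single vehicle sample or fulvestrant replicate 1 took the adjusted p to between 0.0739 and 0.0930, at log2 fold changes of -0.46 (vehicle replicate 2), -0.43 (vehicle replicate 3), -0.41 (vehicle replicate 1) and -0.29 (fulvestrant replicate 1). Without replicate 2 it was -0.51 (adjusted p 0.136) and without replicate 3 -0.49 (adjusted p 0.107). It was not called without the block (adjusted p 0.714), without the variance trend (0.0660) or with only the vehicle and fulvestrant samples fitted (0.0575).

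**Figure D2:**
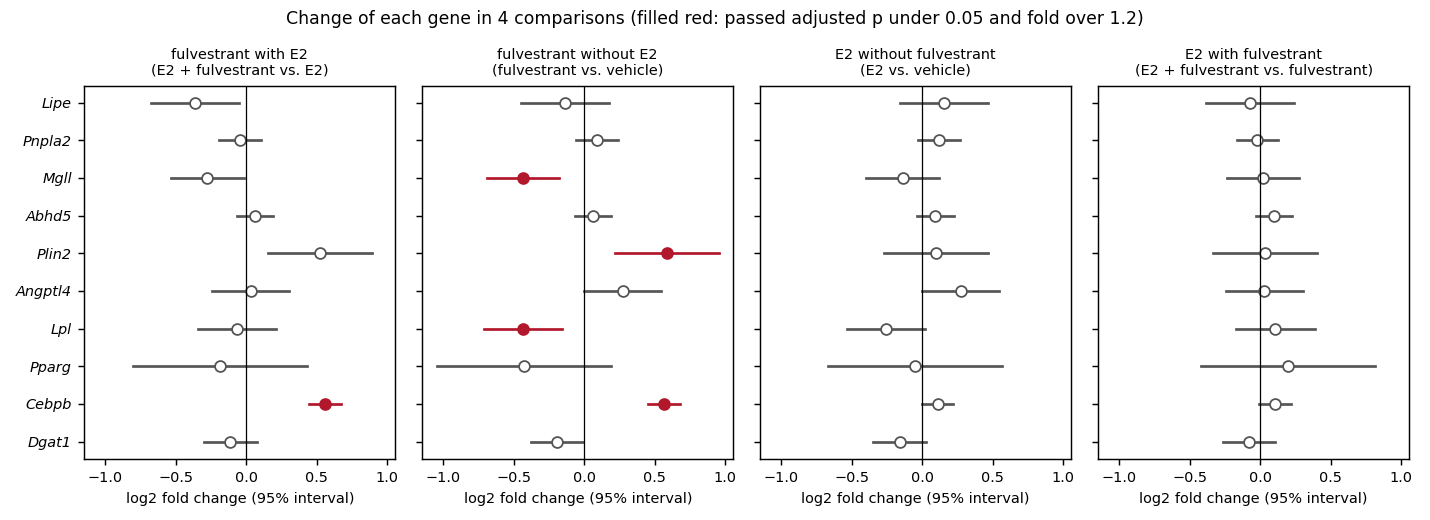
Log2 fold change of fulvestrant for the 10 genes, with E2 (E2 plus fulvestrant against E2) and without (fulvestrant against vehicle), from the fit with the replicate block. The other panels give E2 against vehicle and E2 plus fulvestrant against fulvestrant. Bars are 95% confidence intervals and filled red symbols are called genes. Cebpb (interval 0.45 to 0.67 with E2) is called in both fulvestrant panels, and no gene is called in the E2 panels.

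Of the droplet proteins, Plin2 rose with fulvestrant without E2, and its values split by replicate number. Plin2 (ENSMUSG00000028494) lies on chr4:86648386-86670060, minus strand. Plin2 was at 2147, 6375 and 5975 in vehicle, 2289, 6892 and 6371 in E2, 2430, 11149 and 10968 in E2 plus fulvestrant and 2141, 11027 and 11770 in fulvestrant. In replicates 2 and 3 the 4 samples with fulvestrant exceeded the 4 without, and in replicate 1 all 4 groups lay between 2141 and 2430. With the block, the log2 fold change was 0.59 (SE 0.17, adjusted p 0.0362, called) without E2 and 0.52 (SE 0.17, adjusted p 0.0680, not called) with E2. By replicate number it was -0.0043, 0.79 and 0.98 without E2 and 0.09, 0.69 and 0.78 with E2. Without replicate 1 the log2 fold changes were 0.88 (adjusted p 1.2e-05) without E2 and 0.74 (adjusted p 4.7e-05) with E2, both called. With replicate 1 against replicates 2 and 3 as the only block, the rise with E2 was called (adjusted p 0.0475).

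The Plin2 call against vehicle rested on several samples. It was not called without vehicle replicate 2 (0.52, adjusted p 0.135) or 3 (0.48, adjusted p 0.157), without fulvestrant replicate 2 (0.52, adjusted p 0.143) or 3 (0.43, adjusted p 0.171), or without E2 plus fulvestrant replicate 2 or 3 (0.59, adjusted p 0.0522 and 0.0523). With E2 it was called when vehicle, E2 or fulvestrant replicate 1 was left out (0.52, 0.69 and 0.52, adjusted p 0.0387, 0.0318 and 0.0174). Against vehicle it was 0.49 without all of replicate 2 (adjusted p 0.288) and without replicate 3 0.39 (adjusted p 0.339). For the same comparison the adjusted p was 0.957 without the block, 0.111 with only the vehicle and fulvestrant samples fitted, 0.0812 without the variance trend and 0.0543 with quantile normalization.

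Abhd5, the ATGL coactivator, varied little. Abhd5 (ENSMUSG00000032540) lies on chr9:122351608-122381524, plus strand. It was at 1304, 1714 and 1739 in vehicle, 1473, 1880 and 1709 in E2, 1555, 1923 and 1808 in E2 plus fulvestrant and 1361, 1757 and 1844 in fulvestrant. Every replicate 1 sample was below every sample of replicates 2 and 3. The fulvestrant log2 fold change was 0.06 with E2 and 0.06 without (SE 0.06 each, 95% intervals -0.06 to 0.19 and -0.07 to 0.19), higher in 3 of 3 pairs in each and not called.

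Lpl fell with fulvestrant alone. Lpl (ENSMUSG00000015568) lies on chr8:68880491-68907448, plus strand. It was at 3454, 37939 and 38167 in vehicle, 2592, 34734 and 32483 in E2, 2000, 35959 and 35517 in E2 plus fulvestrant and 1919, 33684 and 31513 in fulvestrant. Vehicle was the highest group for each replicate number, and replicate 1 lay far below the others in each group. The log2 fold change was -0.43 (SE 0.13, adjusted p 0.0404) without E2 and -0.07 (SE 0.13, adjusted p 0.785) with E2. By replicate number it was -0.85, -0.17 and -0.28 without E2 and -0.37, 0.05 and 0.13 with E2.

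The Lpl call was lost in 15 of 24 alternatives. Without all of replicate 1 the log2 fold change was -0.22 (adjusted p 0.0561), and it was -0.26 without vehicle replicate 1 (adjusted p 0.134), -0.33 without fulvestrant replicate 1 (adjusted p 0.118), -0.50 without vehicle replicate 3 (adjusted p 0.0657), -0.50 without fulvestrant replicate 2 (adjusted p 0.0672) and -0.47 without fulvestrant replicate 3 (adjusted p 0.0894). Leaving out replicate 2 or 3 of E2 or of E2 plus fulvestrant left it at -0.43 with adjusted p of 0.0502 to 0.0555, and it was -0.56 without replicate 2 (adjusted p 0.101) and -0.51 without replicate 3 (adjusted p 0.166). The adjusted p was 0.981 without the block, 0.131 with only the vehicle and fulvestrant samples fitted and 0.0819 without the variance trend.

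Angptl4, the Lpl inhibitor, was not called. Angptl4 (ENSMUSG00000002289) lies on chr17:33773750-33781830, minus strand. It was at 3218, 13153 and 12322 in vehicle, 4849, 14181 and 13367 in E2, 5627, 12869 and 13550 in E2 plus fulvestrant and 5143, 13590 and 13162 in fulvestrant. In replicate 1 vehicle was the lowest of the 4 groups and the other 3 lay between 4849 and 5627, whereas replicates 2 and 3 were between 12322 and 14181. The fulvestrant log2 fold change was 0.27 (SE 0.12, adjusted p 0.167) without E2 and 0.03 (SE 0.12, adjusted p 0.898) with E2. By replicate number it was 0.68, 0.05 and 0.10 without E2. With samples left out, the value without E2 moved between 0.069 and 0.39.

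Dgat1, the triglyceride synthesis enzyme, was lower with fulvestrant in 3 of 3 pairs of each comparison by amounts that were not called. Dgat1 (ENSMUSG00000022555) lies on chr15:76502015-76511953, minus strand. It was at 708, 627 and 546 in vehicle, 616, 545 and 517 in E2, 564, 519 and 470 in E2 plus fulvestrant and 675, 471 and 509 in fulvestrant. Vehicle was the highest group for each replicate number. The log2 differences of the pairs were -0.07, -0.41 and -0.10 for fulvestrant against vehicle and -0.13, -0.07 and -0.14 for E2 plus fulvestrant against E2. With the block, the log2 fold change was -0.19 (SE 0.08, adjusted p 0.147) without E2 and -0.11 (SE 0.08, adjusted p 0.426) with E2. With samples left out, the value without E2 moved between -0.27 and -0.086, the latter without replicate 2.

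E2 was compared with vehicle, and E2 plus fulvestrant with fulvestrant, which share no sample, to ask what E2 adds. None of the 10 genes was called by limma in either comparison, and none had an unadjusted p under 0.05. Without the block none was called either. Of all genes, 0.0756% were called with E2 against vehicle (10 genes, all higher, with 1340 at an unadjusted p under 0.05) and 0% with E2 plus fulvestrant against fulvestrant (255 at an unadjusted p under 0.05). Angptl4 was at 0.27 with E2 against vehicle (SE 0.12, adjusted p 0.490), which came to 0.59, 0.11 and 0.12 by replicate number, and at 0.068 without vehicle replicate 1. Lpl was at -0.26 (SE 0.13, adjusted p 0.511), which came to -0.41, -0.13 and -0.23, and leaving samples out moved it between -0.36 and -0.085, the latter also without vehicle replicate 1. Lipe was at 0.15 (SE 0.14, 95% interval -0.16 to 0.46) and Cebpb at 0.11 (SE 0.05, 95% interval -0.0033 to 0.22). Under fulvestrant, the E2 difference was -0.07 for Lipe (-0.39 to 0.24) and 0.10 for Cebpb (-0.01 to 0.22), and over the 10 genes it ranged from -0.08 to 0.20.

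Whether the fulvestrant effect differed with and without E2 was tested by the interaction. It called 0 of the 10 genes and 0% of all genes, with 501 genes at an unadjusted p under 0.05 and none of the 10 among them. For Lpl the interaction was 0.37 (SE 0.18, unadjusted p 0.0645, adjusted p 0.944), and leaving samples out moved it between 0.19 (without vehicle replicate 1) and 0.50 (without replicate 1 of E2 plus fulvestrant). For Cebpb it was -0.01 (95% interval -0.16 to 0.15), for Lipe -0.23 (-0.67 to 0.21), for Mgll 0.16 (-0.21 to 0.52) and for Plin2 -0.07 (-0.59 to 0.45). With samples left out it moved between -0.37 and -0.065 for Lipe and between 0.013 and 0.31 for Mgll. Thus the calls of Mgll, Plin2 and Lpl without E2 and not with E2 were not shown to differ.

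Several of these genes differed more between replicate numbers than between treatments. Over all 4 groups Lpl was 14.4-fold lower in replicate 1 than in replicates 2 and 3, Plin2 3.77-fold, Angptl4 2.88-fold and Cebpb 2.16-fold. These were 4 of the 10 genes over 2-fold, beside 10.3% of all genes, and all 4 were lower in replicate 1. Pparg was 1.95-fold lower, also with no overlap between the 4 samples and the 8. Mgll was 1.32-fold higher in replicate 1, Dgat1 1.22-fold higher and Pnpla2 1.06-fold higher, with overlap. The labels do not say what a replicate number stands for, so its part in these levels cannot be told apart from culture, day or animal.

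**Figure D3:**
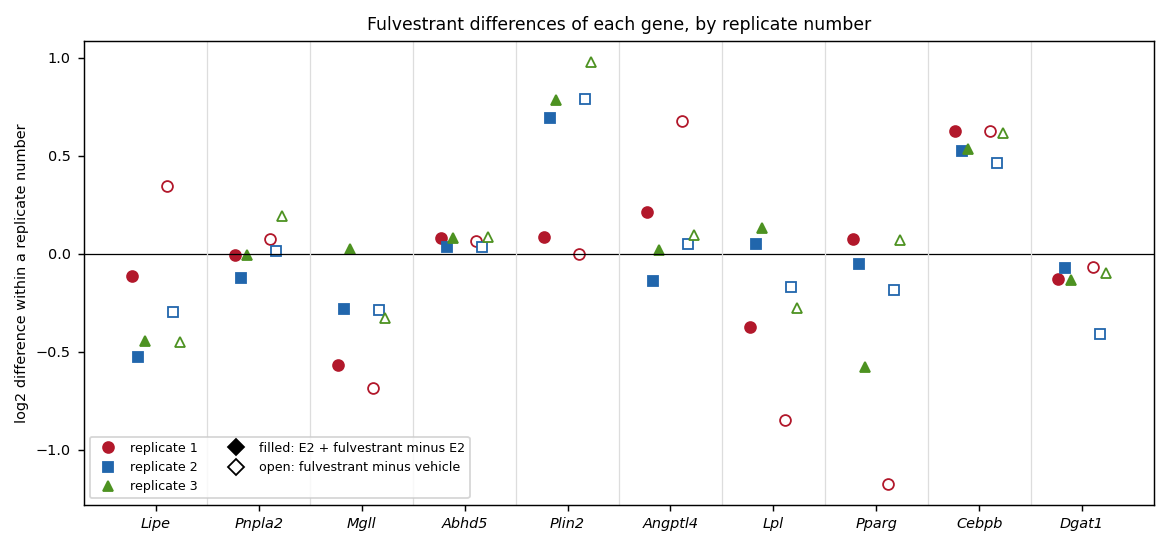
Log2 difference between samples of the same replicate number with and without fulvestrant, for each of the 10 genes, with E2 and without E2. Each point is 1 pair, filled with E2 and open without, and the 6 points of Cebpb lie between 0.46 and 0.63 while those of Plin2 run from -0.0043 to 0.98.

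The fulvestrant effect itself was then compared between replicate 1 and replicates 2 and 3, in a test chosen after the values were seen. Replicate 1 is 1 sample per group and had already stood apart. The adjusted p-values therefore describe a split taken from these same values and are not separate support for it. The difference passed the threshold for 5 of the 10 genes, beside 7.51% of all genes. The effect of replicate 1 was above that of the others by 0.54 for Lipe (SE 0.14, adjusted p 0.0399) and by 0.44 for Angptl4 (SE 0.09, adjusted p 0.0119). It was below by -0.77 for Plin2 (SE 0.08, adjusted p 3.0e-04), -0.54 for Lpl (SE 0.08, adjusted p 0.00158) and -0.41 for Mgll (SE 0.10, adjusted p 0.0273). For Cebpb the difference was 0.09 (SE 0.07, adjusted p 0.511). No E2 effect on the 10 genes differed in the same way, and 3 of all genes did. Without replicate 1, limma called 12.2% of all genes with E2 and 17.5% without, and 3 and 4 of the 10 genes. With E2 these were Lipe, Plin2 and Cebpb, and without E2 they were Lipe, Mgll, Plin2 and Cebpb.

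The pattern of each gene over the 12 samples was compared with that of others after the mean of each replicate number was removed. The genes most like Lipe, over 12 samples, were Man2a1 (r = 0.96), Man2b1 (0.96), Zswim7 (0.93), Eif2ak3 (0.93) and Ghr (0.93). Among those most like Plin2 were Cryab, Nsun2, Eno1b and Hspb1 (r = 0.99 each), and those most like Cebpb were Entpd2, Crip2, Sphk1, Ube2g2 and Pmp22 (0.99 each). Among the 10 genes, the strongest opposite patterns were Angptl4 with Lpl (r = -0.90), Lipe with Plin2 (-0.85) and Mgll with Cebpb (-0.82), and the strongest alike were Mgll with Lpl (0.80) and Plin2 with Cebpb (0.79). In replicate 1, Angptl4 was at 3218 in vehicle and 4849 to 5627 in the other groups, and Lpl at 3454 and 1919 to 2592. In replicates 2 and 3 Angptl4 stayed between 12322 and 14181. Mgll and Lpl also differed most between groups in replicate 1. How far these correlations rest on replicate 1 was not tested. The points share libraries and treatments, so the correlations describe the samples only.

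Other genes of the same pathways came from 6 lists with 103 genes, of which 81 were among the genes analysed. The lists were chosen with earlier results of these data known, so the shares called do not test whether these pathways responded more than others. The paper's own gene tables from these data name Klf15, Pdk4 and Wnt5a. With E2, fulvestrant raised 11 and lowered 7 of the 81 genes (22.2%, beside 9.6% of all genes). Without E2 it raised 15 and lowered 7 (27.2%, beside 12.5%). E2 against vehicle, E2 plus fulvestrant against fulvestrant and the interaction called none of them with limma. Without the replicate block, 5 of the 81 were called with E2 (Klf15, Lpin3, Pdk4, Slc27a3 and Wnt5a) and 4 without (the same list less Klf15), beside 0.521% and 0.544% of all genes.

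**Figure D4:**
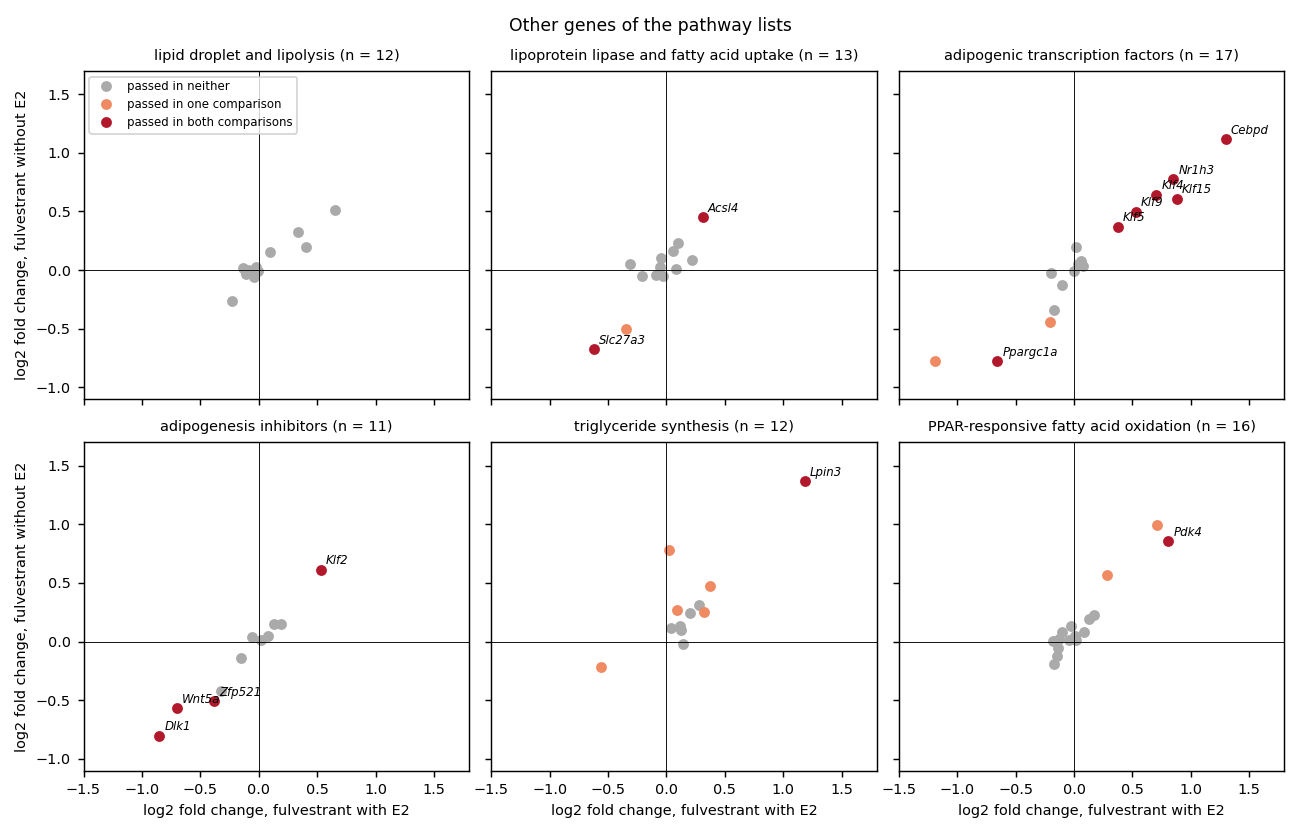
Log2 fold change of fulvestrant with E2 (horizontal axis) against without E2 (vertical axis) for each tested gene of the 6 pathway lists, 1 panel a list. Red points passed in both comparisons, orange in 1 and grey in neither, and Cebpd and Lpin3 lie highest on both axes.

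Adipogenic transcription factors changed in both directions. Of 17 tested, 6 rose and 2 fell in each comparison, beside 9.6% of all genes called in either direction with E2 and 12.5% without. Cebpd, which acts early in adipogenesis alongside Cebpb, rose by 1.30 (SE 0.29, adjusted p 0.0152) with E2 and 1.11 (SE 0.29, adjusted p 0.0247) without. It was at 517, 1683 and 1544 in vehicle and 2119, 2429 and 2648 in fulvestrant, and at 489, 1528 and 1498 in E2 and 2298, 2631 and 2749 in E2 plus fulvestrant. Every sample with fulvestrant exceeded every sample without, and the log2 difference was largest in replicate 1 (2.23 with E2 and 2.03 without). Klf15, a Krüppel-like factor that promotes adipogenesis, rose by 0.88 (adjusted p 2.8e-04) with E2 and 0.61 (adjusted p 0.00216) without.

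The other risers in both were Klf4, Klf5, Klf9 and Nr1h3. Ppargc1a, a coactivator of oxidative metabolism, fell by 0.66 with E2 and by 0.78 without. Zfp423, a preadipocyte commitment factor, fell by 1.19 with E2 (adjusted p 0.0120) and was at -0.77 without (adjusted p 0.0611), and it was at 19.2 to 46.2 in replicates 2 and 3 and 88.0 to 332.4 in replicate 1. Ebf1 fell by 0.44 without E2. The list's median log2 fold change was 0.03 with E2 and 0.05 without. Without replicate 1 the counts were 6 risers and 5 that fell with E2, and 5 and 3 without, beside 12.2% and 17.5% of all genes called in either direction.

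Of 11 adipogenesis inhibitors, 3 fell and 1 rose in each comparison, beside 9.6% and 12.5% of all genes called in either direction. Without replicate 1, 3 fell and 2 rose in each, beside 12.2% and 17.5%. Dlk1 (Pref-1), a surface protein of preadipocytes, was at 15457, 5657 and 5099 in vehicle and 8700, 3168 and 3055 in fulvestrant. It was at 16900, 5716 and 5449 in E2 and 8944, 3096 and 3205 in E2 plus fulvestrant. It fell in 3 of 3 pairs each time, by 0.86 with E2 (SE 0.05, adjusted p 8.6e-06) and 0.80 without (SE 0.05, adjusted p 1.7e-05). Wnt5a, a Wnt ligand, fell by 0.70 with E2 and 0.57 without, and Zfp521 by 0.38 and 0.51. Klf2, which represses Pparg, rose by 0.53 (adjusted p 0.00115) with E2 and 0.61 (adjusted p 4.1e-04) without. The list's median was -0.06 with E2 and 0.01 without.

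Of 12 triglyceride synthesis genes, 2 rose and 1 fell with E2, and 4 rose without, beside the same 9.6% and 12.5% of all genes. Without replicate 1, 3 rose and 1 fell with E2, and 4 rose and 1 fell without, beside 12.2% and 17.5% of all genes called in either direction. Lpin3, a lipin that makes diacylglycerol from phosphatidic acid, was at 146, 209.7 and 210.2 in vehicle, 183, 223 and 228 in E2, 532, 434 and 474 in E2 plus fulvestrant and 594, 428 and 439 in fulvestrant. No sample with fulvestrant overlapped those without, and it rose by 1.18 with E2 (adjusted p 0.00189), while without E2 the log2 differences by replicate number were 2.02, 1.03 and 1.06 (adjusted p 6.8e-04). Lpin2 rose by 0.32 with E2 and was at 0.25 without, under the fold threshold. Gpam, an acyltransferase of the first step of glycerolipid synthesis, fell by 0.56 with E2 (adjusted p 0.00391) and was at -0.21 without (adjusted p 0.155). Dgat2, Gpat3 and Agpat4 rose without E2 (0.78, 0.48 and 0.27). The list's median was 0.13 with E2 and 0.24 without.

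Of 13 genes of lipoprotein lipase handling and fatty acid uptake, 1 rose and 1 fell with E2, and 1 rose and 2 fell without (15.4% and 23.1%, beside 9.6% and 12.5% of all genes). The counts were the same without replicate 1, where 12.2% and 17.5% of all genes were called. Slc27a3, an acyl-CoA synthetase of the fatty acid transport family, fell by 0.62 (adjusted p 1.7e-04) with E2 and 0.67 (adjusted p 1.1e-04) without. Acsl4, which activates long-chain fatty acids, rose by 0.31 (adjusted p 0.0153) and 0.45 (adjusted p 0.00175). Slc27a1 fell by 0.50 without E2. The list's median was -0.04 with E2 and 0.03 without.

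Of 16 genes of PPAR-responsive fatty acid oxidation, 1 rose with E2 and 3 without (6.25% and 18.8%, beside 9.6% and 12.5% of all genes). Without replicate 1, 1 and 2 of the 16 rose, beside 12.2% and 17.5% of all genes called in either direction. Pdk4, a kinase that turns off pyruvate dehydrogenase, was at 811 to 1202 in the 6 samples without fulvestrant and at 1682 to 1950 in the 6 with it. It rose by 0.81 (SE 0.08, adjusted p 1.6e-04) with E2 and 0.86 (SE 0.08, adjusted p 1.2e-04) without. Ucp2 rose by 0.57 without E2 (adjusted p 0.0477). The list's median was -0.01 with E2 and 0.06 without. Of 12 further lipid droplet and lipolysis genes, limma called 0 in either comparison, and without the fold threshold Lipa passed in both (-0.23 and -0.26, adjusted p 0.0242 and 0.0106). Without replicate 1, 3 of those 12 rose with E2 and 1 without, beside 12.2% and 17.5% of all genes called in either direction.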

How the data were processed

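The 12 RNA-Seq samples of HAFs fell into 4 treatment groups of 3, with groups and replicate numbers taken from the sample labels. Per the methods and the submitters' processing notes, the authors used Trimmomatic 0.39 for trimming, SortMeRNA against ribosomal reads, STAR 2.5.2 for alignment to mm10 and strand-aware HTSeq 0.13.5 for gene counts, then dropped counts under 10 and applied the median of ratios of DESeq2 1.37. These normalized counts, a signal for each gene in each sample, are what the authors deposited. Batch adjustment was also described, but whether it entered these values is not given in the sources used here, and replicate 1 still stood apart in them. The smallest value was 8.27, and genes with fewer reads were not analysed here. Dividing each sample by 1 factor made 100% of values whole within 0.05, with no gene under 10 reads.

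From these values, log2(value + 1) was fitted for 13233 genes with limma 3.58.1 (R 4.3.3), with group and replicate number as terms, eBayes with trend, 6 residual degrees of freedom and Benjamini-Hochberg adjustment. Fold changes of low genes are understated on this scale. The replicate number was a block because the genes were to be compared by replicate number and the study adjusted for batch. Same-numbered samples deviated together in each of 18 pairs (mean correlation 0.76). Samples of replicate 2 and replicate 3 did so too (12 pairs, mean 0.71, against 0.71 for the 12 pairs sharing number 2 or 3). The 3 deviations of a group sum to 0, which partly sets these correlations. The difference of replicate 2 from replicate 3, a check added after the values were seen, correlated between groups at a mean of -0.032 (6 pairs of groups). Symbols and positions came from GENCODE M21 (13154 of 13233 identifiers had a symbol), and none of the 10 genes shared exon sequence with another gene on its strand. Python 3.11.15, numpy 2.4.6, pandas 2.3.3 and matplotlib 3.10.9 were also used. The fit was tested on simulated data with 200 genes changed in E2 plus fulvestrant. It called 58.2% of those changed 1.5-fold, 85.1% of those changed 2-fold and 97% of those changed 4-fold in the right direction. Of its calls, 5.88% were unchanged genes. The simulated spread came from the fit with the block, so the choice of block was not tested.

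The genes, the lists and the block were chosen with earlier results of these data known. Beyond the 10 genes, the text names up to 3 called genes per list with the largest change for E2 plus fulvestrant against E2, and the 5 genes most like Lipe. The genes most like Plin2 and Cebpb, the other called list genes, the markers, the test of replicate 1 against replicates 2 and 3, the fit with that split as the block and the list counts without replicate 1 were added after values were seen. Alternatives were no block, 2 groups in the fit, a pseudocount of 10, a mean of at least 100, no variance trend, quantile normalization, CPM, no fold threshold, and leaving out each sample or replicate number. Some genes that fall under these rules are not reported here.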

Additional observations from a re-analysis of the deposited data

Results flagged for a closer look

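The fulvestrant effect was compared between replicate 1 and replicates 2 and 3 in limma's test of that difference over all 12 samples. The difference passed the threshold for 5 of the 10 genes, beside 7.51% of all genes. It was 0.5449 on the log2 scale for Lipe, 0.44 for Angptl4, -0.4057 for Mgll, -0.5434 for Lpl and -0.7708 for Plin2. The test was added after the values were seen, and replicate 1 is 1 sample per group. What the replicate number stands for is not given in the labels, so the part of culture, day or animal in these differences cannot be told apart.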

How the results depend on the processing

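Cebpb was called in both fulvestrant comparisons in every alternative but the fit with no replicate block, where its log2 fold changes were the same (0.56 and 0.57) and the standard error rose from 0.05 to 0.47. With no replicate block, 69 genes were called for E2 plus fulvestrant against E2, 72 for fulvestrant against vehicle and 1 for E2 against vehicle, and 0 of the 10 genes in each. The block lowered the median standard error over all genes from 0.18 to 0.09. A fit with replicate 1 against replicates 2 and 3 as the only block was added after the values were seen. That fit called 1440 genes and 2 of the 10 for E2 plus fulvestrant against E2. For fulvestrant against vehicle 1800 genes and 4 of the 10 were called. For E2 against vehicle 17 genes were called, and 0 of the 10 genes were called in the remaining comparisons. With 2 groups in the fit, 692 genes and 1 of the 10 were called for fulvestrant against vehicle and 57 genes for E2 against vehicle. With no variance trend, 1392 genes and 1 of the 10 were called for fulvestrant against vehicle and 3 genes for E2 against vehicle. Leaving out each sample or replicate number gave 316 to 1611 genes for E2 plus fulvestrant against E2, 399 to 2312 for fulvestrant against vehicle, 0 to 59 for E2 against vehicle, 0 to 4 for E2 plus fulvestrant against fulvestrant and 0 to 11 for the interaction. Of the 10 genes it gave 1 to 3, 1 to 4, 0, 0 and 0.

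The values below changed sign in at least 1 alternative, and none was called with its sign turned, although Lipe for fulvestrant against vehicle was called at -0.37 without replicate 1. When samples were left out, the log2 fold change of E2 plus fulvestrant against E2 ran from -0.10 to 0.13 for Angptl4, -0.16 to 0.089 for Lpl, -0.074 to 0.010 for Pnpla2 and -0.45 to 0.067 for Pparg, and that of fulvestrant against vehicle from -0.37 to 0.023 for Lipe. For E2 against vehicle it ran from -0.0036 to 0.29 for Lipe, -0.070 to 0.27 for Plin2 and -0.14 to 0.050 for Pparg (0.017 for Pparg with quantile normalization). For E2 plus fulvestrant against fulvestrant it ran from -0.10 to 0.13 for Angptl4, -0.19 to 0.012 for Dgat1, -0.17 to 0.088 for Lipe, -0.12 to 0.10 for Mgll, -0.19 to 0.19 for Plin2, -0.057 to 0.037 for Pnpla2 and -0.32 to 0.60 for Pparg. The interaction ran from -0.043 to 0.052 for Abhd5 (-0.0089 with quantile normalization), -0.059 to 0.032 for Cebpb (0.0077 with quantile normalization and 0.020 with CPM), -0.046 to 0.16 for Dgat1, -0.29 to 0.10 for Plin2 and -0.26 to 0.69 for Pparg. The causes were not tested. The planned count tests on recovered reads were not run, and with a pair of samples left in a group the fit pools the spread over groups.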
